A study of Homo sapiens with 14 samples.

Results

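The cancer-testis antigens and germ cell genes were followed through 14 human neuroblastoma cell lines. The genes were listed by name, and 29 of the 36 were found in the count table of 20049 gene symbols. The other 7 (SSX1, PAGE1, SPO11, HORMAD1, BRDT, DAZL and TEX101) were not analysed here. The lines were NBL-S, SK-N-FI, NGP, CLB-GA, SK-N-DZ, Lan-6, SK-N-AS, LS, GI-ME-N, SK-N-BE(2)C, SH-SY5Y, SK-N-SH, IMR5-75 and IMR32, all grown in RPMI1640 or DMEM with serum and with no treatment named in the labels. Each line gave 1 library of total RNA. SH-SY5Y is a subclone of SK-N-SH, and IMR5-75 of IMR32. The series concerns telomere damage and the immunogenicity of neuroblastoma. With a single library per line, line-to-line differences lack a replicate check, and in bulk RNA fewer expressing cells and less RNA per cell cannot be told apart.

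Cancer-testis antigens are proteins made in the germ cells of the testis and again in many tumours, where T cells can recognise their peptides on MHC class I. Most of their genes lie in families on the X chromosome, and DNA methylation of their promoters is known to keep them silent in somatic tissue. Among germ cell genes on the autosomes, many serve meiosis or the piRNA pathway, in which PIWI proteins and their tudor-domain partners silence transposons. Many of them are silenced in somatic cells by DNA methylation or by a polycomb complex that holds E2F6, MGA and MAX.

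Of the 29 genes, 12 are X-linked and 17 autosomal. Levels are given as CPM, the read count scaled for library size and composition. Library totals ran from 35856642 to 58644013 counts, so that a count of 0 allows up to 3 counts, or 0.0514 CPM in LS and 0.102 CPM in Lan-6. Such limits and the intervals below cover counting error only. In the libraries of Lan-6 and GI-ME-N long transcripts were low (rho of deviation with length -0.39 and -0.307), and where a correction for this trend in length and GC content moves a leading level there by over 1.5 times, both values are given. As a check of the tissue label, HAND2, a transcription factor of sympathetic neuroblasts, was present in all 14 lines (lowest in SK-N-SH at 111 CPM, highest in CLB-GA at 1101 CPM), while DBH, an enzyme of noradrenaline synthesis, ran from 1.10 CPM in LS to 2267 CPM in CLB-GA and was at 1.64 CPM in GI-ME-N.

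Promoter windows of 300 bases, from 250 before to 50 after the annotated start, are shown for genes on which the results below turn, with CpG dinucleotides, the sites of DNA methylation, in capitals. The sequences are from RefSeq on GRCh38.p14 and run 5′ to 3′ on the gene's own strand. They show the MAGEA3 and MAGEA6 window, which is the same in both genes, the windows of their relatives MAGEA12 and MAGEA4, that of PRAME, those of TDRD1 and TDRD12, and that of STAG3. Where RefSeq lists several starts, as it does for PRAME, MAGEA4, MAGEA12, TDRD1 and STAG3, the first listed is printed, and which start a line used was not measured.
MAGEA3, chrX:152698544-152698843, plus strand, and MAGEA6, chrX:152769640-152769939, minus strand: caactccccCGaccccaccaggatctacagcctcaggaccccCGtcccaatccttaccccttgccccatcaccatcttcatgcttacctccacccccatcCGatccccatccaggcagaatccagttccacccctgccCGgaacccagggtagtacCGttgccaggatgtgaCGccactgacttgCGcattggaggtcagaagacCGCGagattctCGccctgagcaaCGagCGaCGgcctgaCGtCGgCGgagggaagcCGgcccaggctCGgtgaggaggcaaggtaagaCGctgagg
MAGEA12, chrX:152733507-152733806, plus strand: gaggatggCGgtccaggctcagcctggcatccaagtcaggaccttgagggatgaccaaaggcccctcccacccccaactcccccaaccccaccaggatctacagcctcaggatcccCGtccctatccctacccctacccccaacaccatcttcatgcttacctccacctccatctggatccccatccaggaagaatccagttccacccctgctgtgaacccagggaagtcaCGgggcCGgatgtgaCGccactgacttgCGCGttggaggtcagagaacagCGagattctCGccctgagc
MAGEA4, chrX:151912224-151912523, plus strand: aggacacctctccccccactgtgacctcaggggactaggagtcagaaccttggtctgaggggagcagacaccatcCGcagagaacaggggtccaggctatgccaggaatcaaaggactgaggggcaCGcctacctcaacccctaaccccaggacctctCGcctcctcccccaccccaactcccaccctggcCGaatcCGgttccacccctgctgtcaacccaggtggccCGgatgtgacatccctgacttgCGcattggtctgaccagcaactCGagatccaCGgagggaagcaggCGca
PRAME, chr22:22559216-22559515, minus strand: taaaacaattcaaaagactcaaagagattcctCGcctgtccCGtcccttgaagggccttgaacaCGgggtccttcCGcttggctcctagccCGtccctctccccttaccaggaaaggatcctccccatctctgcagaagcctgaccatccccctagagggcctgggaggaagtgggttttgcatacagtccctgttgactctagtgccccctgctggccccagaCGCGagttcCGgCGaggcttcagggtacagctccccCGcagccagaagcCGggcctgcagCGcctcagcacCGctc
TDRD1, chr10:114179037-114179336, plus strand: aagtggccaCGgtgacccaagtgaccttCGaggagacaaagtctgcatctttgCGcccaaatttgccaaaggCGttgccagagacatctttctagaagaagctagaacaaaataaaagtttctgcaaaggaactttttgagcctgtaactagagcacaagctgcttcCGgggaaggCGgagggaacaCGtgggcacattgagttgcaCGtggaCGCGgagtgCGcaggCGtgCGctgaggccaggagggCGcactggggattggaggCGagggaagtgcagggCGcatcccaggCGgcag
TDRD12, chr19:32719517-32719816, plus strand: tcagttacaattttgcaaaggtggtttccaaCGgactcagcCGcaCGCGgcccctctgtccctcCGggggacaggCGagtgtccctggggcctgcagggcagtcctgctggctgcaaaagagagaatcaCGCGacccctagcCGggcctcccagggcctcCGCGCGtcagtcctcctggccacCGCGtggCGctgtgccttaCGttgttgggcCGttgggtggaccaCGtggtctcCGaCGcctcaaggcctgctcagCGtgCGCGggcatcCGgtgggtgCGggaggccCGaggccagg
STAG3, chr7:100177474-100177773, plus strand: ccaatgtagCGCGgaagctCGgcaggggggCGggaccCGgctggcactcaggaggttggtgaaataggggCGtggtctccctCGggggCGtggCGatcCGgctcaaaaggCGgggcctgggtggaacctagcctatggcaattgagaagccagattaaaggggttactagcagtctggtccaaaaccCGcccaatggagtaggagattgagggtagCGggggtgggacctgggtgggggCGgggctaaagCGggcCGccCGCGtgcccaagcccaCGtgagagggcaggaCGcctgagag

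The 300 bases of MAGEA3 and MAGEA6 matched at 300 of 300 positions, while MAGEA3 and MAGEA12 matched at 77.4% of 226 overlapping bases. RefSeq windows were matched for 22 members, and MAGEA1, MAGEA10, CTAG2, PIWIL2, PIWIL4, TEX14 and TEX15 had no entry. The 9 X-linked windows held between 9 and 21 CpG dinucleotides (median 14), and the 13 autosomal windows between 1 (DDX4) and 60 (MAEL), with a median of 24. The median over 13232 genes of the count table with a window was also 24. A motif of E2F factors, TCCCGC on either strand, was present in 8 of the 22 windows (36.4%), near the 38.6% of all windows. It was found in 8 of the 13 autosomal windows, namely those of SYCP1, MAEL, STAG3, SYCP3, PIWIL1, TDRD9, TDRD12 and SYCP2, and in 0 of the 9 X-linked windows. The E-box CACGTG, bound by MAX with its partners, was present in the windows of STAG3, TDRD1 (2 matches), TDRD12 and PAGE5, against 9.42% of all windows. The motif CCGGAA of ETS factors, on either strand, was found in 6 of the 22 windows, among them those of MAGEA3, MAGEA6 and PRAME, against 25.3% of all. No motif contains another, matches of different motifs may share bases, and a match describes only the letters.

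**Figure D1:**
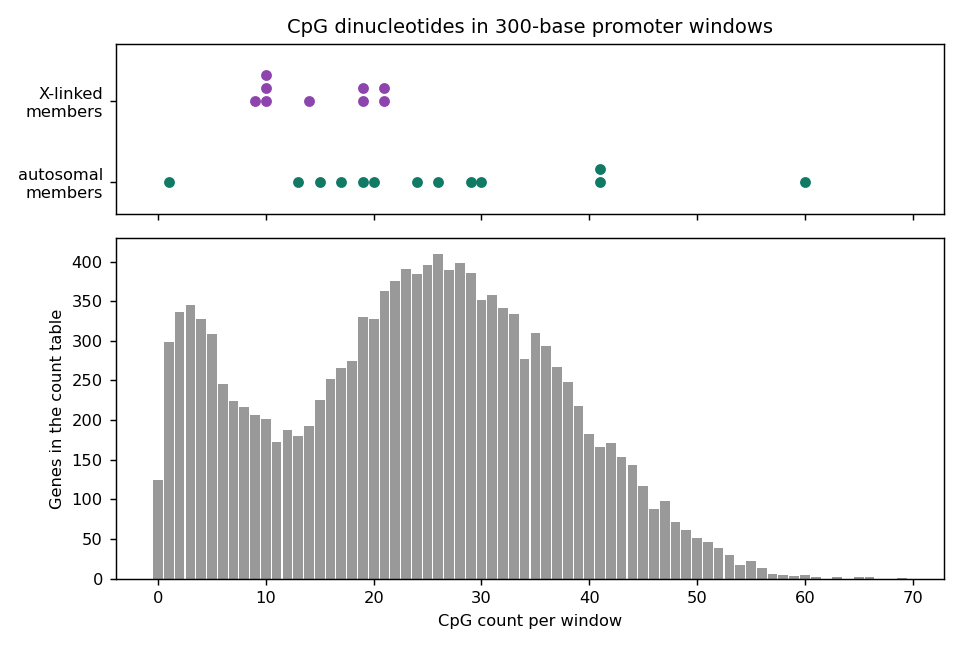
CpG dinucleotides in 300-base promoter windows. The upper panel has 1 point per gene for 9 X-linked and 13 autosomal members, and the bars below count 13232 genes of the count table. The X-linked members sit between 9 and 21, and the autosomal members spread from 1 to 60.

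Most members were near absence in some lines and at high levels in others. At a detection limit of 1 CPM, 26 of the 29 members were detected in at least 1 line, which is near the 87.3% of all genes in the table. Only PRAME and STAG3 were detected in all 14 lines, 2 of 29, while 52.8% of all genes were. Of the 22 members that reached 10 CPM somewhere, 20 were under 1 CPM in at least 1 other line, against 23.9% of all genes that reached 10 CPM. The level of the detected members spanned a median of 9.02 on the log2 scale over the 14 lines, against 3.11 for all detected genes. DDX4, the VASA helicase of germ cells, MAEL, a piRNA pathway protein, and SYCP3, of the synaptonemal complex, stayed under 1 CPM in every line.

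**Figure D2:**
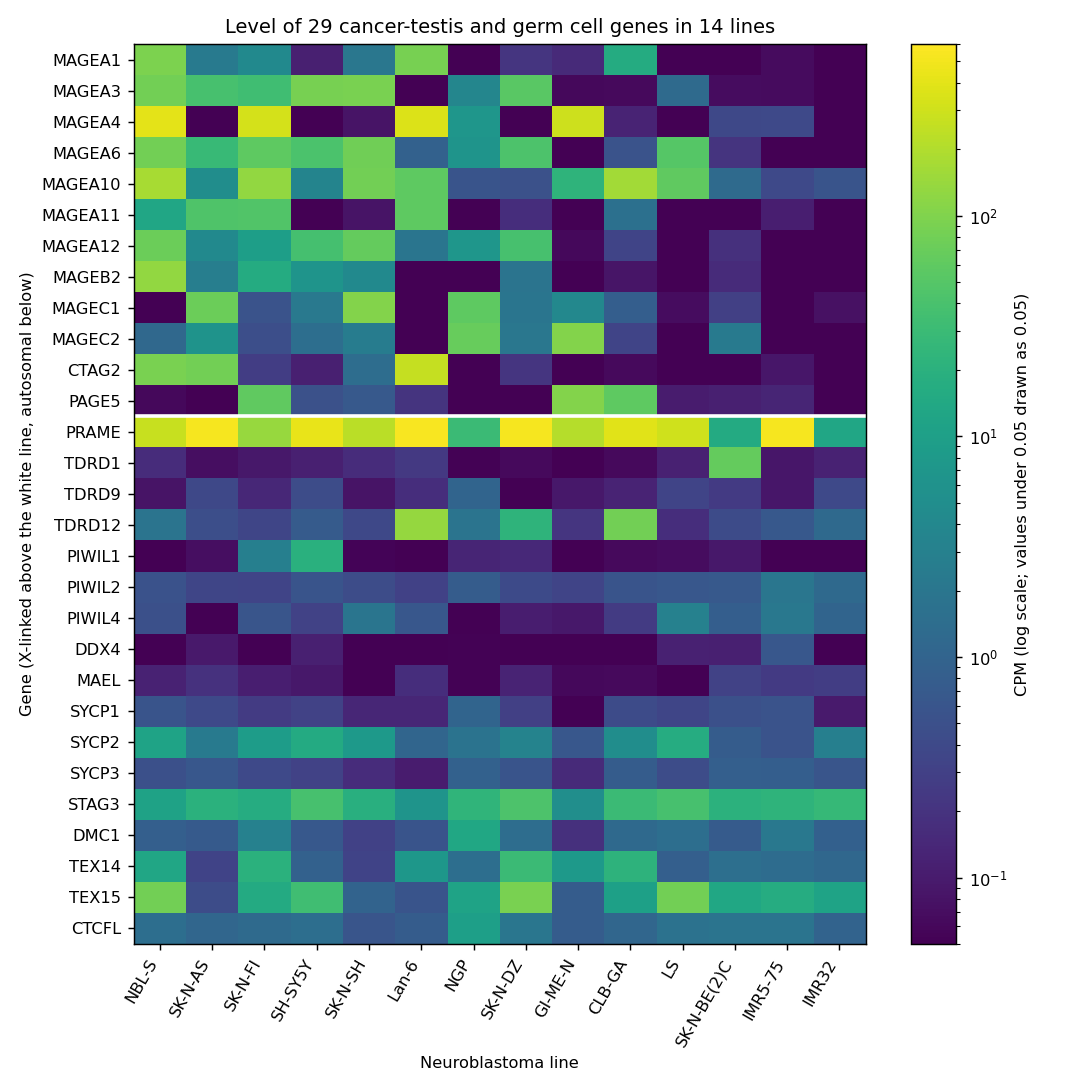
CPM of the 29 members (rows, X-linked above the white line) in the 14 lines (columns, from many to few detected X-linked genes, with SH-SY5Y set beside SK-N-SH), on a log colour scale. PRAME and STAG3 are present in all lines, X-linked genes are bright in some lines and dark in others, and TDRD1 is bright in SK-N-BE(2)C alone.

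PRAME, an antigen recognised by T cells and a substrate receptor of a ubiquitin ligase (chr22:22547701-22559361 on GRCh38), was the most widely expressed member. Its level ran from 13.1 CPM in IMR32 over a median of 292 CPM to 553.9 CPM in Lan-6. With the length and GC trend removed Lan-6 stood at 372.5 CPM and IMR5-75 was highest at 566.7 CPM. Low values were seen in IMR32, SK-N-BE(2)C (15.4 CPM) and NGP (30.6 CPM), and the other 11 lines held at least 141 CPM (SK-N-FI). Per kilobase of transcript PRAME reached 373 CPM, above MAGEA4 at 309 CPM per kilobase in NBL-S and CTAG2 at 306 CPM per kilobase in Lan-6, without a correction for the trend.

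The MAGE-A genes, at Xq28, encode adaptors of RING ubiquitin ligases and were among the first antigens found on tumour cells by T cells. MAGEA4 (chrX:151912509-151925170) had a lowest level of 0.0171 CPM in LS, a median of 0.257 CPM and a highest of 402 CPM in NBL-S. It was high in 4 lines, NBL-S, Lan-6 (363 CPM, or 228 CPM with the trend removed), SK-N-FI (327 CPM) and GI-ME-N (289 CPM), stood at 6.89 CPM in NGP, and was at 0.399 CPM or less in the other 9. MAGEA10 (chrX:152133310-152138578) ran from 0.399 CPM in IMR5-75 over a median of 13.9 CPM to 177 CPM in NBL-S. It was also at 163 CPM in CLB-GA and 132 CPM in SK-N-FI, and 3 lines lay between 1 and 10 CPM, against 1 for MAGEA4.

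MAGEA1 (chrX:153179285-153183880), the founding member of the family, had 0 counts in IMR32 and NGP, a median of 0.184 CPM and a highest level of 93.3 CPM in NBL-S. Lan-6 was close at 88.0 CPM, CLB-GA held 16.1 CPM, and 8 lines were under 1 CPM. MAGEA11 (chrX:149688228-149717266), known as a coregulator of the androgen receptor, had 0 counts in GI-ME-N and LS, a median of 0.0966 CPM and a highest level of 58.8 CPM in Lan-6. SK-N-FI (46.6 CPM), SK-N-AS (45.2 CPM) and NBL-S (12.8 CPM) also held it, CLB-GA had 1.63 CPM, and 9 lines were under 1 CPM.

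MAGEA3 and MAGEA6, both classical targets of tumour vaccines, cannot be read apart with confidence. Of the distinct 31-base words in MAGEA3 transcripts, 67.9% also occur in MAGEA6 (GENCODE 29), so that reads had to be divided between them. MAGEA3 (chrX:152698752-152702347) had 0 counts in IMR32 and Lan-6, a median of 2.53 CPM and a highest level of 89.5 CPM in SK-N-SH, with SH-SY5Y at 88.4 CPM. MAGEA6 (chrX:152766136-152769747) had 0 counts in GI-ME-N and IMR5-75, a median of 17.1 CPM and a highest level of 81.3 CPM in NBL-S. The same 8 lines held each gene at 1 CPM or more. Their sum reached 167 CPM in SK-N-SH, 161 in NBL-S, 130 in SH-SY5Y, 99.3 in SK-N-DZ, 91.5 in SK-N-FI, 67.5 in SK-N-AS, 52.6 in LS and 10.2 in NGP, and stayed under 1 CPM in the other 6 lines. LS was unlike the rest in that MAGEA6 was assigned 51.3 CPM and MAGEA3 1.29 CPM.

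MAGEA12 (chrX:152733779-152737669), which lies between MAGEA3 and MAGEA6, shares 21.9% of its words with MAGEA2 and as many with MAGEA2B. It had 0 counts in IMR32 and IMR5-75, a median of 3.14 CPM and a highest level of 72.5 CPM in NBL-S. SK-N-SH (66.2 CPM), SK-N-DZ (38.5 CPM) and SH-SY5Y (37.9 CPM) followed, and 6 lines were under 1 CPM. In LS, where the sum of MAGEA3 and MAGEA6 was high, MAGEA12 was at 0.0343 CPM. MAGEA4 was high in GI-ME-N and Lan-6, where the sum of MAGEA3 and MAGEA6 was 0.062 and 0.915 CPM.

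The remaining X-linked members lie outside this cluster. MAGEB2 (chrX:30215560-30220089), of the MAGE-B family, was highest in NBL-S at 130 CPM, 7.98-fold above the next line, SK-N-FI (16.3 CPM). Its median was 0.122 CPM, with 0 counts in IMR32, IMR5-75, Lan-6 and NGP. MAGEC1 (chrX:141903894-141909388), of the MAGE-C family, had 0 counts in IMR5-75 and Lan-6, a median of 0.692 CPM and a highest level of 105 CPM in SK-N-SH, followed by SK-N-AS (72.7 CPM) and NGP (58.1 CPM). Its neighbour MAGEC2 (chrX:142202345-142205290) had 0 counts in the same 2 lines, a median of 1.32 CPM and a highest level of 105 CPM in GI-ME-N, with 67.97 CPM in NGP. The neighbours were both high in NGP, while SK-N-SH held 2.58 CPM of MAGEC2 and GI-ME-N 3.998 CPM of MAGEC1. NBL-S, highest for 6 other X-linked members, had 0.0207 CPM of MAGEC1.

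CTAG2, which encodes LAGE-1, a homologue of the antigen NY-ESO-1 (chrX:154651972-154653579), shares 50.9% of its words with CTAG1A and with CTAG1B, the genes of NY-ESO-1. It was highest in Lan-6 at 267 CPM, but at 80.3 CPM there with the length and GC trend removed, which leaves NBL-S highest (91.7 CPM, or 96.1 CPM with the trend removed). SK-N-AS held 82.1 CPM and SK-N-SH 1.46 CPM, the other 10 lines were under 1 CPM, and the median was 0.102 CPM. In Lan-6 and SK-N-AS the summed level of CTAG1A and CTAG1B was only 0.271 and 0.0472 CPM, against 228 CPM in NBL-S and 86.6 CPM in SK-N-FI. PAGE5 (chrX:55220355-55224108), of the PAGE family, was on in 3 lines, namely GI-ME-N (105 CPM, or 56.6 CPM after removal of the trend), SK-N-FI (59.99 CPM) and CLB-GA (57.7 CPM). With the trend removed SK-N-FI (73.6 CPM) and CLB-GA (73.5 CPM) were above GI-ME-N. It was at 0.686 CPM or less in the other 11 lines, with 0 counts in IMR32 and SK-N-AS and a median of 0.123 CPM. Of the words of PAGE5 25.7% occur in other counted genes, 16.9% in AL158819.1 and 11.6% in PAGE2B. Part of its reads could belong elsewhere.

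Lines differed in how many X-linked members they held, with MAGEA3 and MAGEA6 counted as separate members although reads were divided between them. NBL-S and SK-N-AS had 10 of 12 at 1 CPM or more, SK-N-FI and SK-N-SH 9, SH-SY5Y 7, and Lan-6, NGP and SK-N-DZ 6. GI-ME-N had 5, CLB-GA 4, LS 3, SK-N-BE(2)C 2, and IMR5-75 and IMR32 had 0. NBL-S held 9 members at 10 CPM or more and a summed level of 1140 CPM, while IMR5-75 and IMR32 summed to 1.26 and 0.749 CPM over all 12. The autosomal members did not follow this order. NGP had the most, 10 of 17, IMR5-75 and IMR32 had 8 each, and GI-ME-N the fewest, 3. The lead of NGP rests on TDRD9 and SYCP1 at 1.05 CPM each, which fall to 0.905 and 0.871 CPM with the trend removed. The last place of GI-ME-N leaves out TEX15, which passes 1 CPM there with the trend removed. At a limit of 2 CPM IMR5-75 held 5 members and IMR32 4. Over all genes, between 63.9% (GI-ME-N) and 72.3% (NBL-S) reached 1 CPM in a line.

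**Figure D3:**
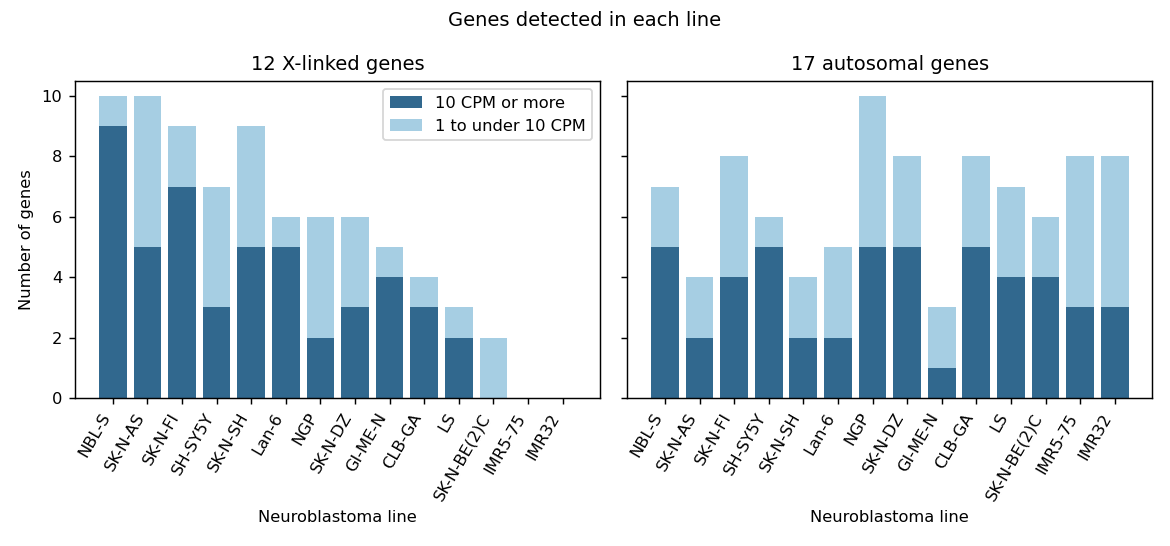
Number of the 12 X-linked members (left) and of the 17 autosomal members (right) detected in each line, split into 10 CPM or more and 1 to under 10 CPM. X-linked counts run from 10 in NBL-S and SK-N-AS to 0 in IMR5-75 and IMR32, while both of these lines have 8 autosomal members.

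The listed piRNA members were under 1 CPM in most lines, with 1 to 3 lines far above the rest for TDRD1, TDRD12 and PIWIL1. TDRD1 (chr10:114179270-114232304), a tudor-domain scaffold that binds PIWI proteins, reached 66.4 CPM in SK-N-BE(2)C. The lowest level was 0.031 CPM (GI-ME-N), the median 0.102 CPM, and the next line, Lan-6, stood at 0.237 CPM, so that SK-N-BE(2)C was 280-fold above it. TDRD12 (chr19:32719753-32829580), another tudor-domain partner of PIWI proteins, passed 10 CPM in 3 other lines, namely Lan-6 (137 CPM), CLB-GA (82.7 CPM) and SK-N-DZ (22.3 CPM), and lay between 1 and 10 CPM in NGP, NBL-S and IMR32. Its lowest level was 0.171 CPM (LS) and its median 0.699 CPM, and the 3 lines above 10 CPM held at most 0.237 CPM of TDRD1. Removing the trend raised Lan-6 to 200 CPM. PIWIL1 (chr12:130337887-130372637), a PIWI protein that carries piRNAs, was highest in SH-SY5Y at 19.6 CPM, with SK-N-FI at 2.91 CPM, a median of 0.066 CPM and 0 counts in GI-ME-N, IMR32, Lan-6 and NBL-S.

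The other members of the pathway stayed under 10 CPM. PIWIL2 ranged from 0.305 CPM in Lan-6 to 1.99 CPM in IMR5-75, PIWIL4 from 0 counts in NGP and SK-N-AS to 3.09 CPM in LS, and TDRD9, a helicase of the pathway, from 0.0428 CPM in SK-N-DZ to 1.05 CPM in NGP. DDX4 reached 0.643 CPM (IMR5-75) and MAEL 0.319 CPM (SK-N-BE(2)C) at most. No line held more than 1 of TDRD1, TDRD12 and PIWIL1 at 10 CPM or more.

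Among the meiotic members, STAG3 (chr7:100177563-100221488), a subunit of the meiotic cohesin ring, was present in every line. It ran from 5.27 CPM in GI-ME-N over a median of 21.98 CPM to 43.7 CPM in SK-N-DZ, with the smallest span of the 22 members that reached 10 CPM (3.04 on the log2 scale). Of its words 31.6% occur in other genes of the table, 16.5% in CASTOR3, so part of its reads could belong elsewhere. SYCP2 (chr20:59863563-59933655), a lateral element of the synaptonemal complex, ran from 0.554 CPM in IMR5-75 over a median of 3.13 CPM to 17 CPM in LS, and SH-SY5Y (15.6 CPM) and NBL-S (11.8 CPM) also passed 10 CPM. Its partner SYCP3 lay between 0.102 and 0.915 CPM and shares 33.0% of its words with the overlapping gene CHPT1. SYCP1, the transverse filament, lay between 0.031 and 1.05 CPM.

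DMC1 (chr22:38518949-38570286), the recombinase of meiotic strand exchange, had a lowest level of 0.186 CPM in GI-ME-N, a median of 0.874 CPM and a highest of 13.4 CPM in NGP. NGP was 4.36-fold above the next line, SK-N-FI. The same line was highest for CTCFL (chr20:57495966-57525652), the testis paralogue of the insulator protein CTCF, at 10.1 CPM, 5.01-fold above SK-N-DZ, with a lowest level of 0.604 CPM in SK-N-SH and a median of 1.37 CPM. TEX14 (chr17:58556678-58692055), a component of the bridges between germ cells, ran from 0.329 CPM (SK-N-SH) over a median of 1.52 CPM to 30.5 CPM in SK-N-DZ, with CLB-GA at 22.0 CPM, SK-N-FI at 20.1 CPM and NBL-S at 12.99 CPM. TEX15 (chr8:30831544-30913003), required in mouse for male meiosis, ran from 0.449 CPM in SK-N-AS over a median of 12.7 CPM to 91.7 CPM in SK-N-DZ. LS (81.9 CPM) and NBL-S (80.7 CPM) were close to it, and SK-N-AS, Lan-6, GI-ME-N and SK-N-SH were under 1 CPM. TEX15 has a mean transcript length of 10500 bases, and with the length and GC trend removed Lan-6 held 1.38 CPM and GI-ME-N 1.37 CPM. With this removal TEX15 reached 1 CPM in 13 of the 14 lines, against 10 without it.

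To ask whether members follow the level of MYCN, the transcription factor amplified in many aggressive neuroblastomas, a slope of log2 level per SD of MYCN was fitted for every gene over 12 lines, leaving out both subclones. MYCN was lowest in SK-N-SH (0.384 CPM) and highest in SK-N-BE(2)C (2245 CPM). Of the members, 24 passed the filter of 0.5 CPM in 3 lines, and TDRD1, TDRD9, PIWIL1, DDX4 and MAEL did not. TEX15 had a positive slope on MYCN, 2.68 (SE 0.60, edgeR quasi-likelihood test, adjusted p = 0.036 over 16920 genes). It was the only member called, 1 of 24, in a scan that called 3.74% of all genes, 1.11% with a positive and 2.64% with a negative slope. A single call among 24 members is near the 3.74% called in either direction. TEX15 was under 1 CPM in SK-N-SH, SK-N-AS, GI-ME-N and Lan-6, the lines with the lowest MYCN (0.384 to 7.29 CPM). In the other lines it did not keep the order of MYCN. It was at 80.7 CPM in NBL-S (MYCN 213 CPM) and at 13.6 CPM in SK-N-BE(2)C. SK-N-SH and GI-ME-N also had the highest mesenchymal scores (5.55 and 4.14), so MYCN and cell state cannot be told apart there. Over all alternatives the adjusted p ran from 3.52e-08 (DESeq2) to 0.109 (edgeR), and with the length and GC trend removed the slope was 2.34 (edgeR adjusted p = 0.0409). The call was lost on leaving out any of GI-ME-N, IMR32, LS, NGP, SK-N-DZ or SK-N-SH (slopes 2.51 to 2.84, edgeR adjusted p from 0.0571 to 0.0911) and with both subclones in place of their lines of origin (slope 2.17, edgeR adjusted p = 0.109). In DESeq2 5 of 24 members passed, near its share of all genes (2998 of 16920, against 633 genes in edgeR). TEX15, DMC1 and CTCFL rose, and PAGE5 and MAGEA11 fell.

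The X-linked and autosomal members differed in the sign of their slopes on MYCN, as a description without a test of the difference. Of 12 X-linked members 11 had negative slopes, from -4.96 (SE 2.44) for PAGE5 to -0.20 (SE 0.86) for MAGEA6, and MAGEB2 had a slope of 1.16 (SE 1.78). None passed in edgeR, the smallest adjusted p being 0.223. Of the 12 tested autosomal members 10 had positive slopes, among them CTCFL (0.87, SE 0.30), DMC1 (1.28, SE 0.46) and PIWIL2 (0.43, SE 0.19), and TDRD12 (-1.47, SE 1.39) and PRAME (-0.51, SE 0.45) had negative ones. The median slope was -0.75 for the X-linked and 0.46 for the autosomal members, against -0.02 for all genes tested. Among the further genes listed below the split was smaller, with 5 of 13 X-linked genes (median -0.42) and 20 of 34 autosomal genes (median 0.16) positive. Adjacent members on the X chromosome share their setting and are not independent of each other.

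**Figure D4:**
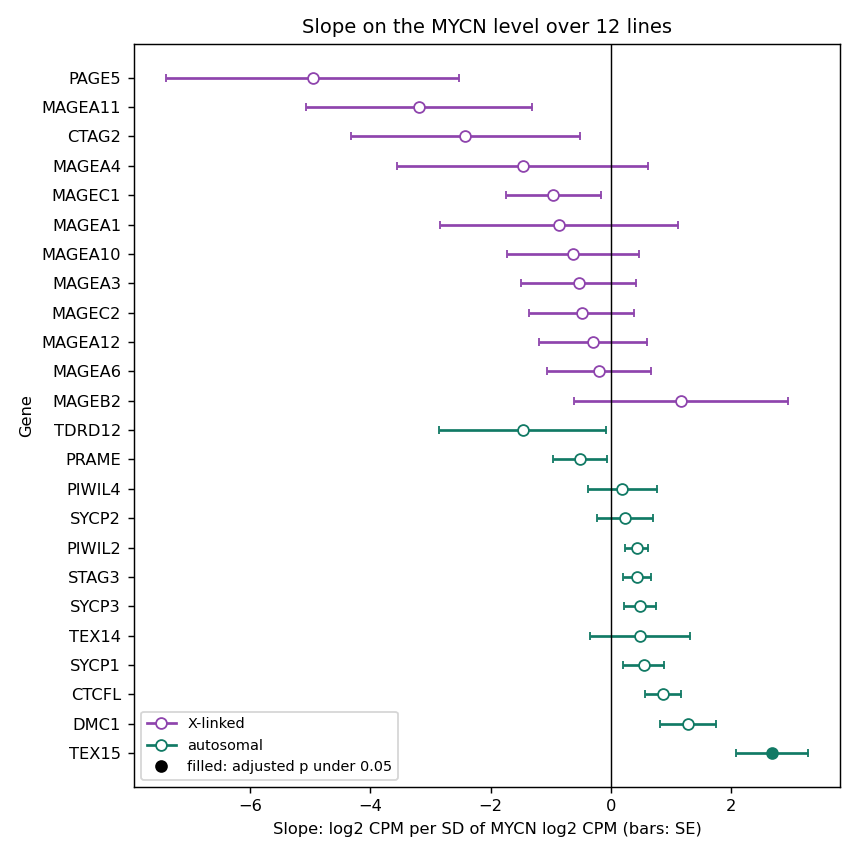
Slope of each tested member on the MYCN level over 12 lines, in log2 CPM per SD of MYCN, with SE bars. The filled point is TEX15, the only member with an adjusted p under 0.05 in edgeR, and 11 of 12 X-linked members lie left of 0.

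Since cancer-testis peptides are shown to T cells by MHC class I, the same fit was made on the score of 14 antigen presentation genes, the mean of their centred log2 levels. No member was called, in a scan that called 0% of all genes in edgeR. At an unadjusted p under 0.05 there were 0 members in edgeR, against 2253 of 16907 genes. DESeq2 called 0 members and 1106 genes, and limma on the deposited log2 values 0 of both. The slopes of the 24 members ran from -1.42 (TEX15, SE 0.70) to 1.3 (MAGEA11, SE 1.23), with a median of -0.08 against 0.02 for all genes. Of the X-linked members 9 of 12 had positive slopes, and of the autosomal members 1 of 12, PIWIL4 (0.44, SE 0.61). Of the further X-linked genes listed below 11 of 13 were positive (median slope 0.45), and of the further autosomal ones 14 of 34 (median -0.07). Lines with many X-linked members stood at both ends of the score, with NBL-S at -2.04 and SK-N-SH at 3.41, SK-N-FI at 2.26 and SK-N-AS at 1.33.

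On the mesenchymal score, the mean of 10 markers of the mesenchymal cell state, edgeR called 0 of 24 members in a scan that called 5.03% of all genes (3.26% rising, 1.77% falling). SK-N-SH (5.55) and GI-ME-N (4.14) stood apart on this score and weigh most in the slopes. The other lines lay between -2.58 (NBL-S) and 1.77 (LS). TDRD12 had the smallest p (slope -2.69, SE 1.01, edgeR adjusted p = 0.157) and was the only member with an unadjusted p under 0.05, against 3282 of 16911 genes. DESeq2 called TDRD12 alone among the members, with a slope of -2.66 and a DESeq2 adjusted p of 0.00136, 1 of 24 members where DESeq2 called 2483 of 16911 genes. The 24 members had a median slope of -0.27, against -0.02 for all genes tested. MAGEC1 had the highest slope, 1.98 (SE 1.19, edgeR adjusted p = 0.397).

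The subclone SH-SY5Y and SK-N-SH, from which it was derived, shared part of their X-linked pattern. MAGEA3 was at 88.4 CPM in SH-SY5Y and 89.5 CPM in SK-N-SH, MAGEA6 at 42.1 and 77.7 CPM, and MAGEA12 at 37.9 and 66.2 CPM. Of 16 members at 1 CPM or more in either line, 7 differed by over 4-fold, 2 higher and 5 lower in SH-SY5Y, against 19% of 15062 genes (9.1% higher, 9.92% lower). On the deposited log2 values 2 members were over 4-fold lower in SH-SY5Y, without a share of all genes on that scale. MAGEC1 was at 2.25 CPM in SH-SY5Y and 105 CPM in SK-N-SH (ratio 0.0213, 95% counting interval 0.0173 to 0.0261). MAGEA10 was at 3.51 CPM in SH-SY5Y and 82.6 CPM in SK-N-SH (ratio 0.0425, interval 0.0359 to 0.05). MAGEA1, CTAG2 and PIWIL4 were also lower in SH-SY5Y, by 5.98-fold (PIWIL4) to 18.2-fold (MAGEA1), from levels of 1.46 to 2.09 CPM in SK-N-SH. TEX15 was at 34.2 CPM in SH-SY5Y and 0.988 CPM in SK-N-SH (ratio 34.6, interval 24.9 to 49.6). PIWIL1 had 853 counts in SH-SY5Y and 2 in SK-N-SH (ratio 357, interval 98.4 to 2950).

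IMR5-75 and IMR32 both lacked the 12 X-linked members at the 1 CPM limit and, among the 29 members, differed most in PRAME. It was at 529 CPM in IMR5-75 and 13.1 CPM in IMR32, a ratio of 40.3 (95% counting interval 36.9 to 44.0). IMR32 was the lowest of the 14 lines for PRAME, and IMR5-75 the third highest. Of 10 members at 1 CPM or more in either line, PRAME was the one over 4-fold higher in IMR5-75 and SYCP2 the one over 4-fold lower (0.554 CPM in IMR5-75 and 2.92 CPM in IMR32, ratio 0.190, interval 0.118 to 0.294), against 12.5% of 15179 genes (6.92% higher, 5.53% lower). On the deposited log2 values SYCP2 did not pass 4-fold, since 0 members were lower there, without a share of all genes on that scale. With 1 library of each line, a change in the subclone and a difference between cultures cannot be told apart.

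**Figure D5:**
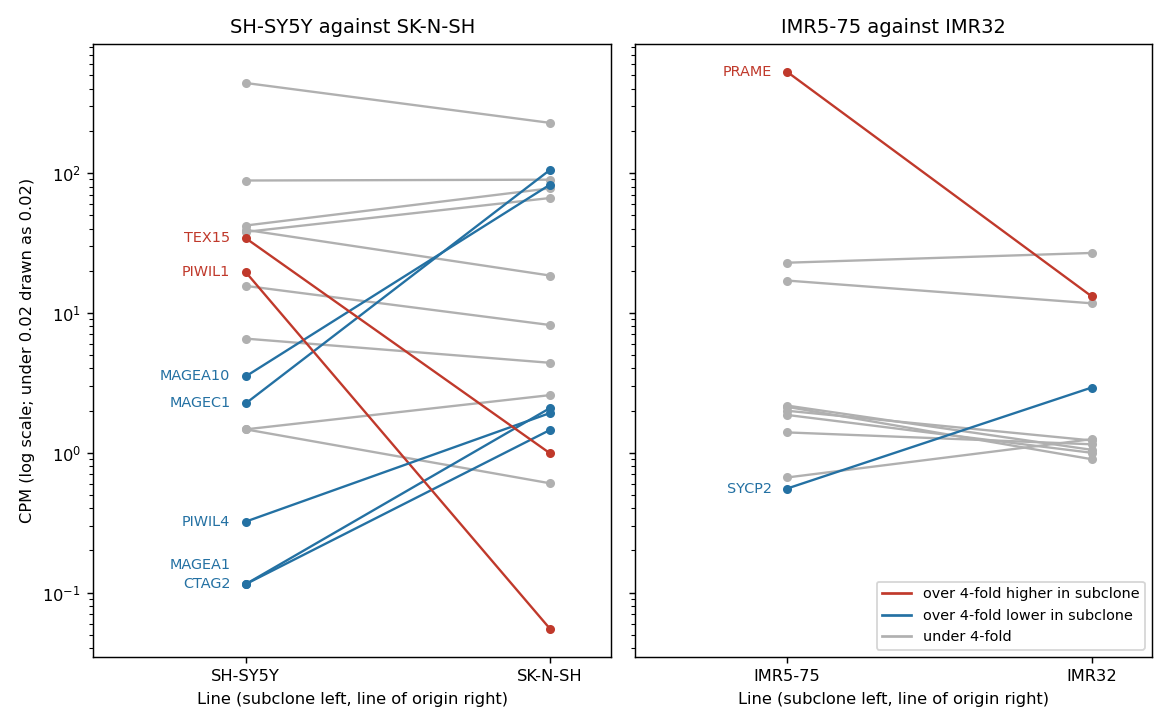
CPM (log axis) of the members at 1 CPM or more in either line, with the subclone left and its line of origin right in each panel. Red marks a level over 4-fold higher and blue over 4-fold lower in the subclone. PRAME is 40.3-fold higher in IMR5-75, and MAGEC1 and MAGEA10 are lower in SH-SY5Y.

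Further cancer-testis genes on the X chromosome were also held by some lines and not by others. Of 72 listed, 26 were in the table, 22 reached 1 CPM in at least 1 line, and 0 did so in every line. SK-N-FI held 15 of the 26 at 1 CPM or more and NBL-S 13, against 1 in IMR5-75 and 1 in IMR32. These counts take near copies, such as XAGE1A and XAGE1B or CTAG1A and CTAG1B, as separate genes. MAGEB1, of the same family as MAGEB2, was at 45.9 CPM in NBL-S and 45.8 CPM in SK-N-FI, and at 0.597 CPM or less elsewhere. XAGE1A and XAGE1B, near copies of each other, summed to 146 CPM in SK-N-FI, 91.1 CPM in NBL-S, 31.3 CPM in SH-SY5Y and 35.7 CPM in SK-N-SH. GAGE1, whose family of near copies was counted here only under this symbol, was at 56.1 CPM in IMR5-75, a line with 0 of the 12 X-linked members, and at 0.125 CPM in IMR32. MAGEA2 and MAGEA2B together were at 84.8 CPM in NBL-S and at 10 CPM or more in the same 8 lines as the sum of MAGEA3 and MAGEA6.

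Further autosomal germ cell genes differed in how many lines held them. Of 60 listed, 43 were in the table and 10 were at 1 CPM or more in all 14 lines, among them REC8, a meiotic cohesin subunit (lowest in GI-ME-N at 6.32 CPM, highest in Lan-6 at 440 CPM, which removal of the trend lowers to 210 CPM), and PSMC3IP, a partner of DMC1. SK-N-FI was highest for GTSF1, a zinc finger partner of PIWI proteins (106 CPM). With DESeq2 size factors GTSF1 was also at 43 CPM in SK-N-DZ and NGP and at 36 CPM in NBL-S and SK-N-AS. SK-N-FI was also highest for HENMT1, which methylates piRNA ends (37.4 CPM, with 2.62 CPM in the next line, CLB-GA). The same held for SPATA22, a meiotic recombination factor (23.8 CPM, with 5.0 CPM in SK-N-DZ on DESeq2 size factors). MEIOB, the partner of SPATA22 in meiosis, was high in another line, LS (23.5 CPM), and at 0.0903 CPM in SK-N-FI. MEIOB, and MAGEA2B, E2F6, MGA and the called genes of these lists, were named after their values were seen. Of 34 tested genes of this list, 1 was called in any of the 3 scans, TDRKH, a tudor-domain partner of PIWI proteins, which fell with the mesenchymal score (slope -1.13, SE 0.30, edgeR adjusted p = 0.0467). On that score 5.03% of all genes were called, 1.77% falling, and a single call among 34 genes cannot be set apart from these shares.

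All 28 listed repressors of germline genes, or factors that counter them, were present in every line. DNMT1, the maintenance DNA methyltransferase, lay between 154 CPM (Lan-6) and 385 CPM (CLB-GA), and UHRF1, which recruits it, between 46.5 CPM (IMR5-75) and 489 CPM (GI-ME-N). E2F6 lay between 37.1 and 68.6 CPM and MGA between 28.3 and 149 CPM. Among the lines with 9 or 10 X-linked members DNMT1 was at 376 CPM in NBL-S, 299 CPM in SK-N-AS, 250 CPM in SK-N-FI and 161 CPM in SK-N-SH. In the lines with 0 it was at 168 CPM (IMR5-75) and 266 CPM (IMR32). Whether the RNA of DNMT1 or of another repressor goes with the number of X-linked members was not tested, and promoter methylation was not measured. ATF7IP, a partner of the histone methyltransferase SETDB1, was the one repressor called on MYCN, with a slope of 0.58 (SE 0.13, edgeR adjusted p = 0.0382). That is 1 of 28 repressors, near the 3.74% of all genes called in either direction (1.11% rising). With the subclones in place of their lines of origin edgeR called 0 genes.

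Markers of other cell types were read as a check. Of 10 listed spermatid markers 4 were in the table, and their summed level lay between 1.65 CPM (SK-N-SH) and 9.28 CPM (SK-N-FI), with TSSK2 at 0.166 CPM at most. Of 9 markers of primordial germ cells and pluripotency 7 were in the table, and POU5F1 and NANOG reached 2.36 and 6.52 CPM at most, while SALL4 was at 10 CPM or more in 10 lines (up to 28.2 CPM in CLB-GA). Markers of leukocytes were low except PTPRC in SK-N-AS (470 CPM), LYZ in LS (42.1 CPM) and CD68 (up to 46.9 CPM in SK-N-SH), while CD3E stayed under 1 CPM in all lines. Their summed level ran from 4.96 to 487 CPM. Markers of primordial germ cells and pluripotency summed to between 3.56 CPM (GI-ME-N) and 54.9 CPM (NGP), where KIT held 32.1 CPM. Sertoli and Leydig markers, 7 of 8 in the table, summed to between 3.66 CPM (GI-ME-N) and 146 CPM (SH-SY5Y), with AMH at up to 126 CPM. Schwann markers summed to between 3.42 CPM (NGP) and 19.3 CPM (NBL-S). Adrenergic markers summed to between 317 CPM (SK-N-SH) and 5860 CPM (CLB-GA), and mesenchymal markers to between 178 CPM (SK-N-BE(2)C) and 38800 CPM (GI-ME-N). The part of these cell states in the levels above was not tested.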

How the data were processed

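Total RNA of 14 neuroblastoma lines was extracted by TRIzol for TruSeq libraries, 1 per line, per the labels' protocols. Per the submitters' processing notes, the build was GRCh38 and the tools were kallisto 0.44.0 and DESeq2 1.48.2, whose roles are not stated. For annotation, strand setting and filters nothing is given in the sources used here. The table deposited by the authors holds whole numbers per gene symbol, read as rounded expected counts, since kallisto estimates counts. The deposited log2 values, called variance-stabilised in their name, served as an alternative only.

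CPM used TMM factors in edgeR 4.0.16 (R 4.3.3). Scores average log2 CPM (prior count 2) after centring each gene. Slopes came from edgeR's quasi-likelihood test over 12 lines, for genes with 0.5 CPM in 3 lines, with Benjamini-Hochberg adjustment over all genes and a threshold of 0.05, and the fit was tested on simulated data. Alternatives used DESeq2 1.42.0 and limma 3.58.1. Length, GC content and shared 31-base words came from GENCODE 29 transcripts, and the trend was fitted per library with splines. The labels give 1 group, so p-values measure the spread between single libraries of lines. Of 91 pairs of libraries 0 were identical. Members and lists were chosen with earlier results of these data known. Members at 10 CPM or more in any line are given in full, and from each other list up to 10 genes with the highest CPM could be named. Protein identity was planned, and shared words of transcripts were used in its place.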

Additional observations from a re-analysis of the deposited data

How the results depend on the processing

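The number of genes called on MYCN was 2998 in DESeq2, 417 in limma on the deposited log2 values, 1282 with all 14 lines and 0 with subclones in place of their lines of origin, against 633, and ran from 4 to 1486 when each line was left out. Members called on MYCN numbered 5 in DESeq2, 0 with the subclones and 0 to 1 over the omissions, against 1. The slope of TEX15 stayed positive in every alternative, from 1.57 (limma) to 2.84. On antigen presentation, against 0 genes, DESeq2 called 1106, the fit without a filter 13, that with all 14 lines 61, and the omissions 0 to 13, with 0 members throughout. On the mesenchymal score, against 851 genes, DESeq2 called 2483, the subclones in place of their lines of origin 440, and the omissions 348 to 1237, with 1 member in DESeq2 and 0 in the other fits. At 0.5 CPM 4 members were detected in every line, against 2. With a 2-fold limit 4 members were higher in SH-SY5Y, against 2, and 3 in IMR5-75, against 1. On the deposited log2 values 2 were lower in SH-SY5Y, against 5, and 0 in IMR5-75, against 1. These counts at other limits and on the log2 values have no share of all genes beside them. They are not read as a result about the members. The cause of these moves was not tested, except that a lower limit admits more genes. No paired analysis was possible because the labels give 1 group and number no replicates. Below 1 CPM a level rests on few counts, and reads of near copies were divided by estimation.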
